A study of Homo sapiens with 6 samples.

Results

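Long non-coding RNAs that are among the most abundant or best studied transcripts of mammalian cells were followed through 6 total RNA libraries of a human neuroblastoma cell line. The set held 6 genes chosen by symbol, *MALAT1*, *NEAT1*, *MIAT*, *KCNQ1OT1*, *NORAD* and *OIP5-AS1*, out of 60651 genes in the count tables, and all 6 passed the filter on low counts. The samples compared were 3 titled EtOH, after the ethanol vehicle, and 3 titled Tet, after tetracycline, which the protocol text gives as added for 5 days to switch on *MYCN*, the transcription factor that drives a large share of aggressive neuroblastomas. RNA was depleted of ribosomal RNA rather than selected for poly(A) tails, so that nuclear transcripts without a tail were kept. The titles name IMR575, a *MYCN*-amplified line, and a tag speaks of a knockdown, whereas the protocol text describes single clones of SK-N-SH cells with a tetracycline repressor and an inducible *MYCN* gene, selected with G418 and blasticidin. The study itself used tetracycline in both ways, to express *MYCN* in SK-N-AS cells and to induce an shRNA against *MYCN* in IMR-5/75 cells, and the latter matches the titles and the tag. The grouping rests on the titles only, and what all 6 samples carried cannot be told from the labels.

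As background, *MALAT1* and *NEAT1* lie side by side on chromosome 11 and are retained in the nucleus. *MALAT1* concentrates in nuclear speckles, bodies rich in splicing factors, and its 3′ end is made by RNase P, which cuts off a tRNA-like piece. *NEAT1* is the scaffold of paraspeckles, which assemble around its long form together with RNA-binding proteins. *MIAT* is a neuronal transcript with repeats that resemble the intron branch point and bind splicing factors. *KCNQ1OT1* is an unspliced antisense RNA transcribed from the paternal allele inside *KCNQ1*, where it silences neighbouring genes in cis. *NORAD* binds the Pumilio proteins that destabilise mRNAs, and *OIP5-AS1* is known for binding microRNAs and the RNA-binding protein HuR. Both *NORAD* and *OIP5-AS1* are known to be found largely in the cytoplasm, so the description of the set as abundant nuclear RNAs holds for its best known members and not for each of them.

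The libraries held between 27933378 and 40498065 counts, so that 3 counts corresponded to between 0.0741 and 0.107 CPM (counts per total of the library, brought to 1 common size), and intervals from counts cover counting error only. Levels are given as CPM after TMM scaling, a correction for library composition, and levels of different genes are compared as TPM, which also divides by exon length. The targeted gene *MYCN* was at 158, 256 and 156 CPM in libraries labelled EtOH and at 196, 199.9 and 145 CPM in those labelled Tet. These ranges overlapped, and the log2 fold change was -0.07 ± 0.23 (SE; edgeR quasi-likelihood test, adjusted p = 0.956), so the libraries are called by their labels throughout. *MYCN* has an exon GC content of 56.9%, and tested protein-coding genes of 55.6% to 72.8% had a median log2 fold change of 0.27. The part of base composition in the *MYCN* value was not tested. Of 8 noradrenergic neuroblastoma markers, 6 were above 1 CPM in every library, while *TH* and *DBH* reached at most 0.452 CPM. Their summed level was between 621 and 680 CPM in EtOH and between 684.5 and 832 CPM in Tet, so that every Tet library was above every EtOH library, although 0 of the 8 were called by edgeR (*ISL1* had a log2 fold change of 1.18 and *PHOX2A* of 1.40), and its part in the values below was not tested. Of 7 mesenchymal markers 5 were above 1 CPM in every library, with summed levels between 290 and 518 CPM in EtOH and between 259 and 378 CPM in Tet. The 4 Schwann cell markers summed to at most 4.77 CPM in a library, with *S100B* at 0 in all of them. EtOH replicate 2 stood apart from the other EtOH libraries: the chi-square per degree of freedom between it and its fellow replicates was 147 and 111, against 11.4 between EtOH replicates 1 and 3 and between 31.5 and 77.4 among Tet libraries, and it had the smallest mitochondrial share, 4.12% of counts against between 5.86% and 10.01% in the others.

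The most abundant gene of the whole table was *MALAT1*, by mean CPM, and *NEAT1* had rank 8 of 60651 genes. By TPM, which is per exon length, *MALAT1* had rank 7 and *NEAT1* rank 54. On that scale the mean levels were 22162 TPM for *MALAT1*, 813 TPM for *NEAT1*, 356 TPM for *NORAD*, 49.6 TPM for *OIP5-AS1*, 29.1 TPM for *KCNQ1OT1* and 12.8 TPM for *MIAT*. The ranges over 6 libraries of neighbours in this order did not overlap. The closest pair was *OIP5-AS1*, from 38.8 to 65.0 TPM, and *KCNQ1OT1*, from 22.3 to 37.1 TPM. *KCNQ1OT1*, whose annotated exon spans 91667 bases, took rank 56 by CPM and rank 4381 by TPM. *MIAT* ranked 3101 by CPM and 7806 by TPM and is not an abundant RNA in these cells. Levels between genes also moved with base composition: among protein-coding genes tested, the median TPM was 32.8 in the 20% of genes with the lowest exon GC content and 0.859 in the 20% with the highest. The 6 RNAs had exon GC contents between 40.3% (*OIP5-AS1*) and 50.8% (*MIAT*), against a median of 45.8% over 16780 long non-coding RNAs, and the part of base composition in their order was not tested.

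Together the 6 RNAs took 7.15%, 5.79% and 8.10% of all counts in EtOH replicates 1 to 3 and 9.23%, 7.99% and 10.4% in Tet replicates 1 to 3. EtOH replicate 3 lay above Tet replicate 2, so the groups overlapped. The means were 7.01% ± 1.16 and 9.20% ± 1.20 (SD, n = 3 each; exact two-sided permutation test, p = 0.2, where 0.1 is the smallest value that 3 libraries against 3 can give). All long non-coding RNAs made up between 9.61% and 14.6% of counts, and these 6 genes held between 60.3% and 71.0% of that. *MALAT1* alone held 6.25%, 5.04% and 7.19% of counts in EtOH and 8.09%, 7.27% and 9.53% in Tet. The groups did not overlap, although EtOH replicate 3 (Wilson 95% interval 7.18% to 7.20%) and Tet replicate 2 (7.26% to 7.27%) almost touched, and the difference of 2.14 percentage points reached the smallest possible value (exact permutation test, p = 0.1). When counts from the mitochondrial genome were left out of the total, EtOH replicate 3 (7.86%) passed Tet replicate 2 (7.72%), the groups overlapped and p was 0.2. In these bulk samples, fewer cells that express an RNA and less of it per cell cannot be told apart.

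None of the 6 RNAs differed between the groups at an adjusted p of 0.05: 0 of 6 were called by edgeR, against 53 of 22443 genes tested (0.236%). DESeq2 called 1 of the 6, *MIAT*, and 2.02% of all genes it tested, and limma-voom called 0 of the 6 and 0.258% of all genes. At an unadjusted p under 0.05 the count was 2 of 6, *MIAT* and *MALAT1*, against 2417 genes of the table (10.8%). The groups did not overlap for 3 of the 6, *MIAT* and *MALAT1* with every Tet library above every EtOH library and *OIP5-AS1* with every Tet library below, and such separation was found for 17.5% of all genes tested. The median log2 fold change over the 6 was 0.15, beside -0.01 over all genes tested and 0.01 over the 5234 long non-coding RNAs tested, of which 7 rose and 3 fell.

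**Figure D1:**
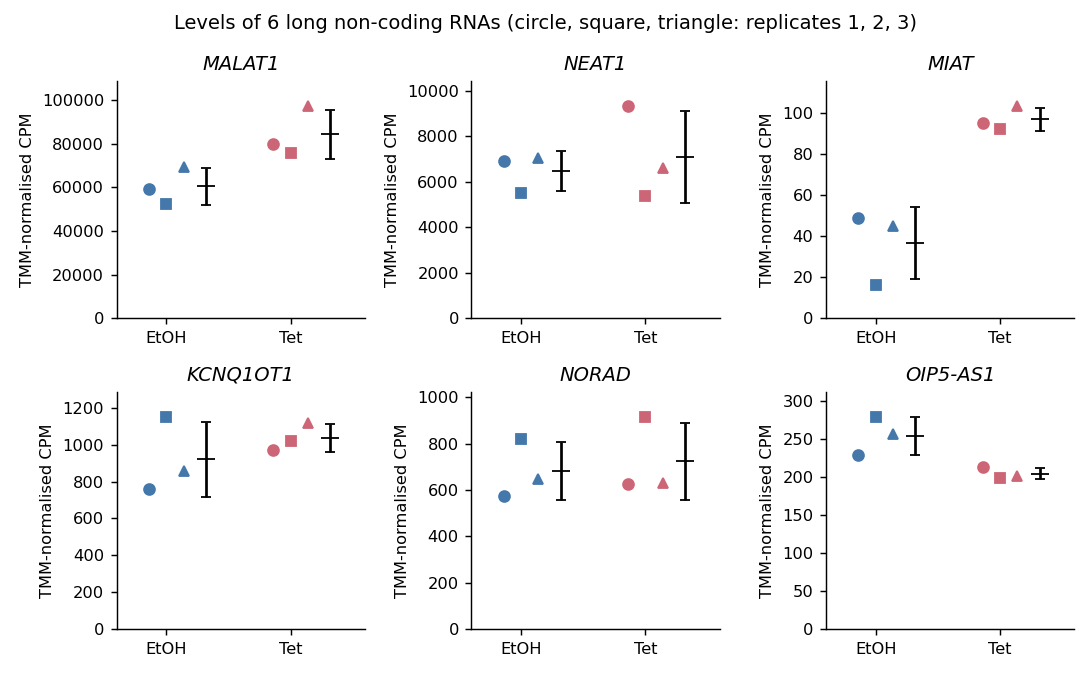
Levels of the 6 RNAs in TMM-normalised CPM (y axis, from 0) in libraries labelled EtOH (blue) and Tet (red). Circles, squares and triangles are replicates 1, 2 and 3, and the black bar gives the mean ± SD of 3 libraries. The groups are apart for MIAT, MALAT1 and OIP5-AS1 and overlap for NEAT1, KCNQ1OT1 and NORAD.

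*MALAT1* (ENSG00000251562.8; GRCh38 chr11:65497688-65506516, plus strand, a single exon of 8829 bases in the files) was at 59428, 52296 and 69452 CPM in EtOH and at 80019, 75847 and 97043 CPM in Tet. Every library labelled Tet was above every library labelled EtOH, with the lowest EtOH level in the replicate that stood apart. The means were 60392 ± 8619 and 84303 ± 11229 CPM (SD, n = 3 each), a log2 fold change of 0.48 ± 0.20 (SE; 95% interval 0.02 to 0.94), which did not pass the test (edgeR, adjusted p = 0.437).

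The reads of *MALAT1* were far from evenly spread along it. Short annotated features that lie wholly inside its exon show this, because the counting shared each read pair evenly between overlapping genes, so that a feature received about the same number of pairs as it took from *MALAT1*. Any pair that touched a feature was counted, so under even coverage a short feature would hold a larger share of pairs than of bases. The following stretches are the feature with the most pairs, bases 5227 to 5321 counted from the 5′ end (chr11:65502914-65503008, GC 29.5%), and the tRNA-like piece at the 3′ end, bases 8430 to 8486 (chr11:65506117-65506173, GC 61.4%), which RNase P is known to release. They are shown on the plus strand.
MALAT1 bases 5227 to 5321: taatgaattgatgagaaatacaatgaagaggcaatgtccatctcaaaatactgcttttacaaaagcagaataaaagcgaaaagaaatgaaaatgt
MALAT1 bases 8430 to 8486: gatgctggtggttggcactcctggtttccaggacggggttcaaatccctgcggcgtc
The first of these made up 1.08% of the exon and held a median of 7.635% of the pairs of *MALAT1*, with a range of 7.21% to 8.49% over the 6 libraries. The tRNA-like piece made up 0.646% of the exon and held 0.0110% of pairs (range 0.00950% to 0.0150%). The remaining feature, an antisense gene over bases 323 to 718 (GC 52.8%), covered 4.49% of the exon and held 0.000962% of pairs, between 8 and 17 counts a library. The reads of *MALAT1* therefore hardly ever came from bases 323 to 718. RefSeq (GRCh38.p14) lists a second start site of *MALAT1* downstream of that stretch, and how many transcripts start at each was not tested.

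*NEAT1* (ENSG00000245532.9; chr11:65422774-65445540, plus strand, 22767 exon bases) was at 6906, 5483 and 7027 CPM in EtOH and at 9310, 5375 and 6592 CPM in Tet. Tet replicate 1 was the highest library and Tet replicate 2 the lowest, so the groups overlapped. The means were 6472 ± 858 and 7092 ± 2015 CPM (SD, n = 3 each), and the log2 fold change was 0.13 ± 0.23 (95% interval -0.39 to 0.65; edgeR, adjusted p = 0.903). Without Tet replicate 1 the value turned to -0.12. The ratio of *MALAT1* to *NEAT1* counts was 8.61, 9.54 and 9.88 in EtOH and 8.59, 14.1 and 14.7 in Tet, so the spread among Tet libraries was wider than the gap between the groups. Inside *NEAT1*, 3 features within its first 1345 bases, which the short and the long form share, held between 0.0323% and 0.240% of its pairs (medians), each less than its share of bases. A feature near the 3′ end, the microRNA gene *MIR612* at bases 21685 to 21784, lies in the long form alone and held 0.00993%. These features differ in GC content, from 42.9% to 65.0%, so the 2 forms of *NEAT1* were not told apart.

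**Figure D2:**
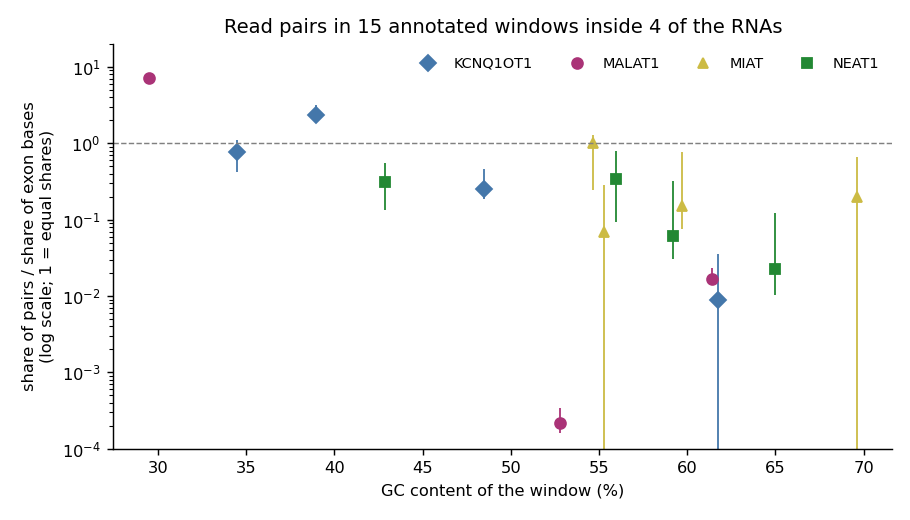
Share of a host RNA's read pairs divided by the share of its exon bases (y axis, log scale, with 1 for equal shares) against GC content (x axis, %) for 15 short annotated features inside MALAT1, NEAT1, MIAT and KCNQ1OT1. Points are medians of 6 libraries and lines run from the lowest to the highest library, cut at the lower edge of the plot where a library had no pairs. The 2 features above 1 have GC contents of 29.5% and 38.9%.

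Over the 15 features inside 4 of the RNAs, 11 had a ratio of the share of pairs to the share of bases under 0.5. Pearson's r between GC content and the log10 of this ratio was -0.56 and Spearman's rho was -0.66 across features, which share the same 6 libraries and lie in 4 genes, so these values are a description. The GC-rich protein-coding genes next to the *MALAT1* and *NEAT1* locus were almost silent in the tables. *LTBP3* on one side summed to 291 counts over all 6 libraries, and *FRMD8* and *SLC25A45* on the other to 151 and 52 counts. *FAUP4*, a nearby pseudogene with a lower GC content of 46.9%, was low as well, with 292 counts.

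*MIAT* (ENSG00000225783.8; chr22:26646411-26676475, plus strand, 13908 exon bases) showed the largest difference of the 6. It was at 48.6, 16.2 and 44.7 CPM in EtOH and at 95.2, 91.9 and 103 CPM in Tet. The Tet libraries lay close together and all above the EtOH libraries, and EtOH replicate 2 was far below its fellow replicates. The means were 36.5 ± 17.7 and 96.7 ± 5.71 CPM (SD, n = 3 each), a log2 fold change of 1.40 ± 0.35 (95% interval 0.59 to 2.21), or 2.65-fold (1.51 to 4.63). This did not pass the test (edgeR, adjusted p = 0.184). It passed with DESeq2 (adjusted p = 0.00699) and with no filter on low counts (adjusted p = 0.00751, in a fit that called 0.746% of genes). It also passed without EtOH replicate 2, with a smaller log2 fold change of 1.06 (adjusted p = 0.00922, in a fit that called 2.89% of genes), and over its 16 alternative settings the adjusted p ran from 0.00699 to 0.507.

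The library with the lowest *MIAT* level was also low for genes of similar base composition. Within each group, *MIAT* and these genes placed the libraries in the same order. In protein-coding genes with exon GC contents between 49.1% and 55.6%, the range that holds the value of *MIAT*, the median deviation from the mean log2 CPM of all libraries was 0.25, -0.26 and 0.08 in EtOH replicates 1 to 3 and -0.04, -0.14 and 0.14 in Tet replicates 1 to 3. EtOH replicate 2 was thus the lowest and EtOH replicate 1 the highest. Between the groups the order differed, as *MIAT* was lower in EtOH replicate 1 than in every Tet library. With a correction for GC content in the fit, an alternative chosen after seeing the data, the log2 fold change of *MIAT* was 1.51 (edgeR, adjusted p = 0.0582). The part of base composition in the difference between the groups was not tested. *MIAT* also shares 21.9% of its exon bases with other genes. The largest overlap, 2148 bases, is with an antisense long non-coding RNA (ENSG00000206028.1) at 0.939 ± 0.843 CPM in EtOH and 2.33 ± 1.01 CPM in Tet, and since the strand was not used in counting, reads of the 2 genes cannot be told apart there.

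**Figure D3:**
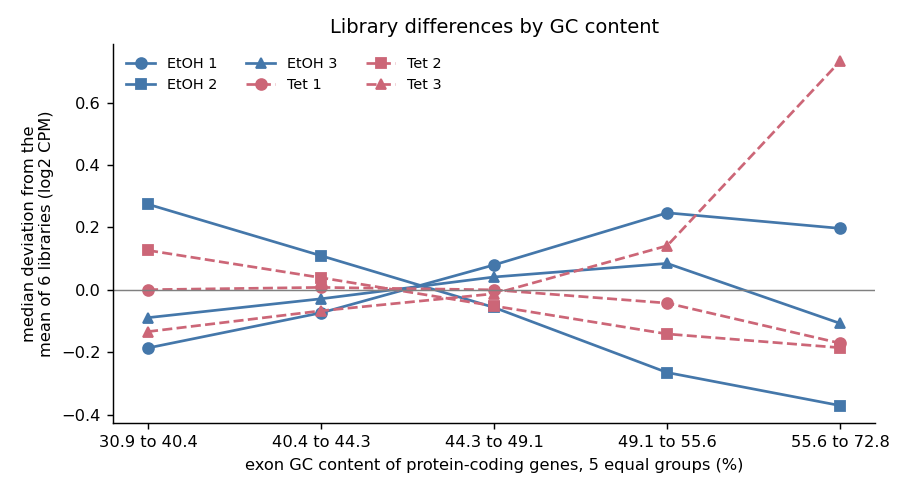
Median deviation of each library from the mean of all 6 (y axis, log2 CPM) for protein-coding genes in 5 equal groups by exon GC content (x axis, %), with EtOH in solid blue and Tet in dashed red lines. EtOH 2 falls from 0.27 in the group with the lowest GC content to -0.37 in the highest, and Tet 3 reaches 0.73 in the highest.

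The repeat for which *MIAT* is known was present in its sequence. The letters TACTAAC, a motif added after the data had been seen, occurred 7 times on the transcript strand of its exons, and only 1.48% of 8245 long non-coding RNAs of at least 1000 exon bases had as many per base. The stretch below, chr22:26671414-26671554 on the plus strand, holds 3 of the 7, in capitals.
MIAT stretch with 3 matches: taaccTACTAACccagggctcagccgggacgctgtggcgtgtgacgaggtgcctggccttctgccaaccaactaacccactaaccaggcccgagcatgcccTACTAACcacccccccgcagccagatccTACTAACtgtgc
Of the 4 splicing factors listed as *MIAT* partners, *QKI*, *SF1*, *CELF3* and *SRSF1*, 0 were called by edgeR at an adjusted p under 0.05 and 0 had an unadjusted p under 0.05. *CELF3*, a neuronal splicing regulator, had the largest value, 0.39 ± 0.36 (SE, log2 fold change; edgeR, adjusted p = 0.784), which was 0.06 without Tet replicate 3. The neighbouring gene *TPST2* was at 5.12 ± 1.63 CPM in EtOH and 3.79 ± 0.471 CPM in Tet (log2 fold change -0.43; edgeR, adjusted p = 0.673), with a direction opposite to that of *MIAT*. *MIATNB*, which shares 241 exon bases with *MIAT* on the same strand, had a log2 fold change of -0.07 (edgeR, adjusted p = 0.978). The other tested features within 50 kb share exon bases with *MIAT* and had log2 fold changes of 1.29 and 1.28.

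*KCNQ1OT1* (ENSG00000269821.1; chr11:2608328-2699994, minus strand) was at 757, 1149 and 856 CPM in EtOH and at 969, 1019.9 and 1117 CPM in Tet. EtOH replicate 2 was the highest library, above all 3 Tet libraries, and the groups overlapped. The means were 921 ± 204 and 1035 ± 75.2 CPM (SD, n = 3 each), with a log2 fold change of 0.17 ± 0.19 (95% interval -0.25 to 0.59; edgeR, adjusted p = 0.826). The host gene *KCNQ1*, a potassium channel transcribed from the other strand, had a total of 5.5 exonic counts over all libraries, while *KCNQ1OT1* had between 25938 and 44440 counts in each. Only 121 exon bases are shared by the 2 genes. Counting ignored the strand, so any reads from unspliced *KCNQ1* RNA within the exon of *KCNQ1OT1* cannot be told apart from those of *KCNQ1OT1*. Of 11 genes of the imprinted domain at 11p15.5, only *NAP1L4*, a histone chaperone, and *CD81*, a membrane protein, passed the filter on low counts, and 0 of these 2 were called by edgeR. *NAP1L4* was at 100.4, 48.0 and 90.9 CPM in EtOH and at 81.8, 53.6 and 67.1 CPM in Tet, with overlapping groups. *PHLDA2*, *ASCL2* and *SLC22A18AS* had 0 counts in every library, which allows up to 0.107 CPM at these depths, and *CDKN1C*, a cell-cycle inhibitor silenced on the paternal allele, had 19 counts in all. The 9 genes of the domain that were not tested have exon GC contents of 55.9% to 69.6%, a range in which levels were low in these libraries generally, so no change in them was detectable here and their low values were not told apart from this.

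*NORAD* (ENSG00000260032.2; chr20:36045618-36051018, minus strand, 5401 bases, none of them shared with another gene) was at 576, 821 and 647 CPM in EtOH and at 625, 914 and 630 CPM in Tet. In each group replicate 2 was the highest, and the groups overlapped. The means were 681 ± 126 and 723 ± 165 CPM (SD, n = 3 each), with a log2 fold change of 0.09 ± 0.21 (95% interval -0.39 to 0.56; edgeR, adjusted p = 0.939). Its sign was not stable, at -0.04 without EtOH replicate 1 and -0.12 without Tet replicate 2. The sequence carries the sites for which the RNA is known: TGTANATA, the element read by Pumilio proteins, occurred 15 times on the transcript strand, or 2.78 per kb, a density reached by 0.0728% of 8245 long non-coding RNAs of at least 1000 exon bases. Among the other 5 RNAs the count was 0 in *MALAT1* and *MIAT*, 1 in *OIP5-AS1*, 6 in *NEAT1* and 9 in *KCNQ1OT1*. The stretch below, chr20:36048301-36048500 printed along the minus strand, holds 3 of the 15, in capitals.
NORAD stretch with 3 matches: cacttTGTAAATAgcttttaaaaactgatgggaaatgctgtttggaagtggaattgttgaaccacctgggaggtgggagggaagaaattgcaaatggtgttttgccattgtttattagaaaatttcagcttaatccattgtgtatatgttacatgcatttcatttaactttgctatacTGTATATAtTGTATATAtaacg
The 8 listed binding proteins of *NORAD* had a median log2 fold change of -0.03, and 0 of the 8 were called by edgeR or had an unadjusted p under 0.05. *PUM2*, a Pumilio protein, was at 282, 341 and 280 CPM in EtOH and at 304, 368 and 238 CPM in Tet, so it was well expressed and its groups overlapped.

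*OIP5-AS1* (ENSG00000247556.6; chr15:41283990-41309737, plus strand, 12673 exon bases) was the only one of the 6 with a negative log2 fold change. It was at 228, 278 and 256 CPM in EtOH and at 212, 199 and 201 CPM in Tet, with every Tet library below every EtOH library. The means were 254 ± 25.0 and 204 ± 7.32 CPM (SD, n = 3 each), a log2 fold change of -0.32 ± 0.14 (95% interval -0.64 to 0.01), which did not pass the test (edgeR, adjusted p = 0.475). Of its listed partners and neighbours, 5 of 6 were tested, 0 were called and 4 of the 5 had negative values. *OIP5*, a mitotic gene that shares 465 bases with it on the other strand, was at 3.06, 5.98 and 3.57 CPM in EtOH and at 3.47, 3.55 and 2.66 CPM in Tet. Those bases are 38.7% of the exon bases of *OIP5*. Since the strand was not used in counting, reads of *OIP5* and *OIP5-AS1* cannot be told apart there. *NUSAP1*, a spindle gene next to *OIP5-AS1*, was at 32.8, 61.0 and 38.1 CPM and at 27.7, 39.5 and 33.2 CPM. In both genes EtOH replicate 2 was the highest library and the groups overlapped, as they did for *ELAVL1*, which encodes HuR (35.3, 42.4 and 34.3 CPM in EtOH, 44.4, 49.4 and 34.5 CPM in Tet). The largest exon overlap of *OIP5-AS1*, 513 bases on the same strand, is with a protein-coding gene (ENSG00000285920.2). That gene had a log2 fold change of -0.38 (edgeR, adjusted p = 0.620), and read pairs over the shared bases were divided between it and *OIP5-AS1*.

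The promoters bear on the design because MYCN binds the E-box CACGTG. RefSeq promoters, 250 bases before to 50 after a start site on GRCh38.p14, were matched for 4 of the 6 RNAs, 5 promoters in all, and CACGTG, which reads the same on both strands, was found in those of *OIP5-AS1* and *NORAD*, where it begins 240 and 138 bases before the start. It was not found in the 2 promoters of *MALAT1* or in that of *MIAT*, and 7.26% of 35116 promoters of this length hold it. Those that do are printed along the transcript strand with the E-box in capitals, *OIP5-AS1* at chr15:41283740-41284039 and *NORAD* at chr20:36050911-36051210.
OIP5-AS1 promoter: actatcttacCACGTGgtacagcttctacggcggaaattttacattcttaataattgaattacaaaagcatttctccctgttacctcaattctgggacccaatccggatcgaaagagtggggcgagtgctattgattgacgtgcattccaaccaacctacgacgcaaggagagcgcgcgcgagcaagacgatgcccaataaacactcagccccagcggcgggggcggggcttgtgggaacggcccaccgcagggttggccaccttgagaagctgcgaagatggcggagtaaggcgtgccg
NORAD promoter: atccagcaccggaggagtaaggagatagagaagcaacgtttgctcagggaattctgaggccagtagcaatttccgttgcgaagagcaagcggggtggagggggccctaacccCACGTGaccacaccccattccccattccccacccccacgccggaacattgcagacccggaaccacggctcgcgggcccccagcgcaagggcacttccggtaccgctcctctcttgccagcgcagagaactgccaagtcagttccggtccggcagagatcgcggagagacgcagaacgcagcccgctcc
These matches are a description of the letters, not of binding, and neither of the 2 RNAs with an E-box passed the test.

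**Figure D4:**
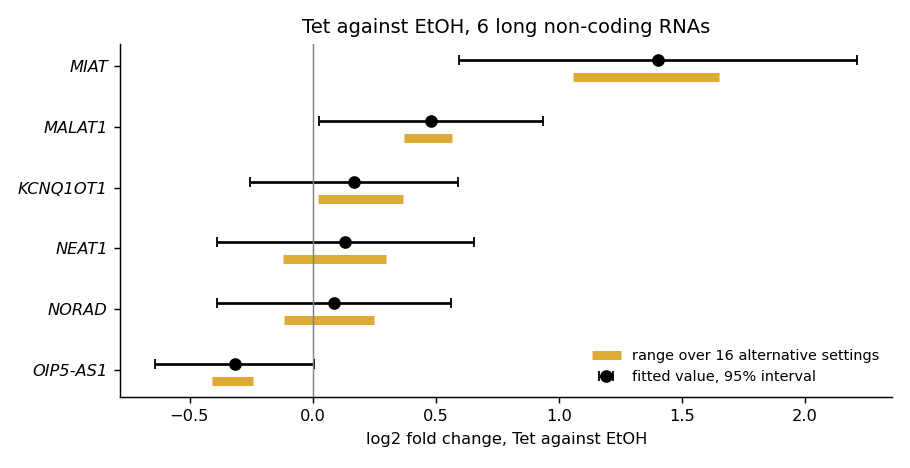
Log2 fold change of libraries labelled Tet against EtOH (x axis) for each of the 6 RNAs. Black points and bars are the edgeR value and its 95% interval from 3 libraries against 3, and orange bars run from the lowest to the highest value over 16 alternative settings. The orange bars cross 0 for NEAT1 and NORAD and stay on one side for MIAT, MALAT1, KCNQ1OT1 and OIP5-AS1.

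Lists of genes that work with these RNAs held no called gene by edgeR, and outside the list of other long non-coding RNAs DESeq2 and limma-voom called 0 as well. Of the annotated genes within 50 kb of each RNA, 2 to 6 were tested, and 0 were called by edgeR or had an unadjusted p under 0.05. Several of these lie inside the exons of *MALAT1*, *NEAT1* or *MIAT* and share their read pairs. All 3 tested for *KCNQ1OT1* lie inside its exon, so no separate gene within 50 kb of it was tested. Among 20 identifiers of 19 paraspeckle proteins, the partners of *NEAT1*, 0 were called and 0 had an unadjusted p under 0.05 (edgeR), with a median log2 fold change of 0.01. *SFPQ*, essential for paraspeckle assembly, was at 1389.6, 1625 and 1439 CPM in EtOH and at 1131, 1417 and 1379 CPM in Tet, and *NONO*, its partner, at 184, 171 and 174 CPM and at 164, 209 and 182 CPM. The groups overlapped for both. The largest values of the list were 0.24 in *HNRNPM* and *HNRNPK* and -0.29 in *HNRNPA1* and -0.21 in *RBM14*. Of 18 genes of nuclear speckles and *MALAT1* processing, 17 were tested and 0 were called, with 0 at an unadjusted p under 0.05 and a median of -0.04. *RPPH1*, the RNA of RNase P, had the largest value, 1.27 ± 0.57 (SE; edgeR, adjusted p = 0.478), at 1.70, 2.38 and 2.05 CPM in EtOH and at 1.73, 3.21 and 9.70 CPM in Tet, and the value was 0.29 without Tet replicate 3. The groups did not overlap for 3 of the 17, near the 17.5% of all genes. *METTL16*, which binds the triple helix of *MALAT1*, and *SRRM1*, a speckle protein, lay below EtOH in every Tet library (log2 fold changes -0.25 and -0.29), and *SF3B1*, a branch-point splicing factor, lay above (0.12; edgeR, adjusted p = 0.613, 0.541 and 0.835).

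Among other long non-coding RNAs, 27 of 32 listed genes were tested and 0 were called by edgeR. An unadjusted p under 0.05 was found for 7 of the 27, beside 10.8% of all genes tested. The groups did not overlap for 9 of the 27, beside 17.5% of all genes tested. The median log2 fold change of these 27 genes was 0.0013. DESeq2 called 2 of them, *MIR100HG* and *SNHG1*, and edgeR without EtOH replicate 2 called 5 (*DLEU2*, *FTX*, *LINC00632*, *MIR100HG* and *SNHG1*), fits in which 2.02% and 2.89% of all genes tested were called. The largest positive values were in *MIR100HG*, the host of a microRNA cluster, with 1.64 ± 0.34, and *CASC15*, a neuroblastoma risk-locus RNA, with 0.60 ± 0.14 (SE; edgeR, adjusted p = 0.118 and 0.158). *MIR100HG* was low, with 329 counts over all libraries, at 0.557, 0.936 and 0.891 CPM in EtOH and at 2.34, 2.87 and 2.21 CPM in Tet. *CASC15* was at 149, 132 and 164 CPM in EtOH and at 229, 228 and 219 CPM in Tet, and the groups did not overlap for either gene. The most negative values were in *LINC00632*, which hosts a circular RNA, with -1.27 ± 0.43, and *MIR17HG*, the host of the miR-17-92 cluster and a known MYC target, with -0.76 ± 0.34 (edgeR, adjusted p = 0.322 and 0.478). *LINC00632* was at 179, 78.7 and 198 CPM in EtOH and at 70.7, 30.7 and 87.7 CPM in Tet, and the groups overlapped through the low EtOH replicate 2. Of 6 short structural RNAs tested, all 6 had positive values and 0 were called, with a median of 1.24 that was 0.16 without Tet replicate 3. *RN7SL1*, the RNA of the signal recognition particle, was at 75.5, 77.5 and 66.7 CPM in EtOH and at 79.0, 88.9 and 342 CPM in Tet, where Tet replicate 3 stood far above the rest. The same library was the highest for the tRNA-like piece of *MALAT1* in counts. By share of *MALAT1* pairs, EtOH replicate 3 was higher for this piece than Tet replicate 3 (0.01502% against 0.01463%). Tet replicate 3 was also the highest for the GC-rich genes, at a median deviation of 0.73 log2 CPM in those of 55.6% to 72.8%. *MALAT1* has an exon GC content of 40.6%, and in the group that holds this value Tet replicate 3 was at -0.07. With the GC correction, chosen after seeing the data, the log2 fold change of *MALAT1* was 0.47 (edgeR, adjusted p = 0.351), against 0.48 without it. The part of base composition in the level of *MALAT1*, also highest in Tet replicate 3, was not tested. Without Tet replicate 3 the log2 fold change of *MALAT1* was 0.37 (edgeR, adjusted p = 0.670).

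**Figure D5:**
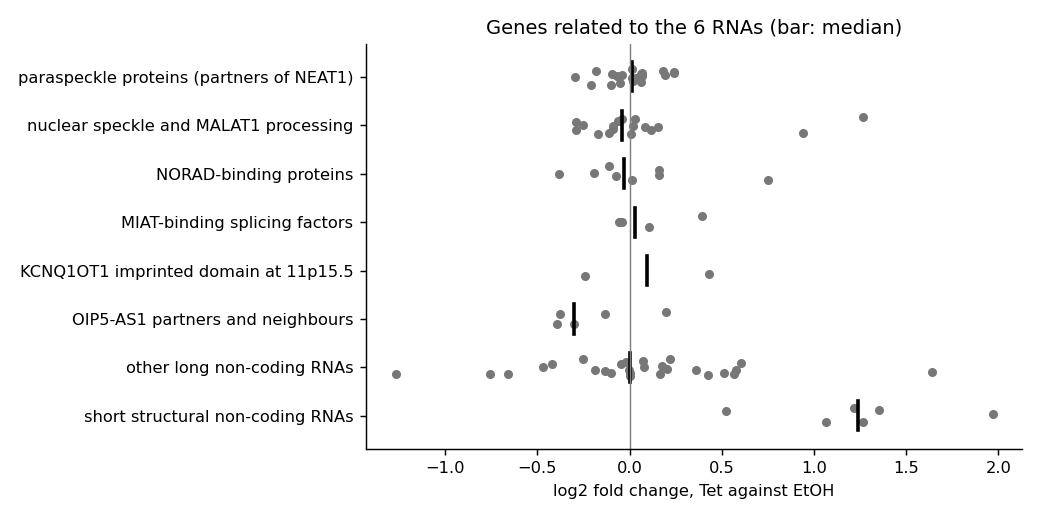
Log2 fold change of libraries labelled Tet against EtOH (x axis) for every tested gene of 8 lists related to the 6 RNAs (rows). Each grey point is 1 gene and the black bar is the list's median, which lies between -0.30 and 0.09 in all lists but that of short structural RNAs, at 1.24.

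Across the 6 libraries, *MALAT1* and *MIAT* were the pair of these RNAs with the most similar profiles (Pearson's r of log2 CPM 0.89), and *MIAT* and *OIP5-AS1* were the most opposite (-0.95). With 6 libraries in 2 groups, such values follow any difference between the groups and are given as a description. By the same measure over 9048 candidate genes with a symbol and a mean of at least 5 CPM, the 3 most similar genes were *GOLGB1*, *FUNDC1* and *NDST1* for *MALAT1* (r from 0.991 to 0.992), and those of *NEAT1* included *NUDT16-DT* (0.994) and *TRIM52* (0.976). For *MIAT* they were *ARHGEF11*, *MAP6* and *GSE1* (0.995 to 0.998), and for *KCNQ1OT1* they were *LYRM2*, *UFM1* and *PMAIP1* (0.989 to 0.998). For *NORAD* they were *KIF21A*, *RNU7-75P* and *TAOK1* (0.979 to 0.991), and for *OIP5-AS1* they were *ERO1B*, *RNF125* and *SDAD1* (0.987 to 0.996). *MAP6*, a neuronal microtubule protein, followed *MIAT* in size as well, at 7.63, 2.99 and 7.76 CPM in EtOH and at 16, 15.4 and 18.1 CPM in Tet.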

How the data were processed

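The authors deposited unscaled estimated counts for each gene, with a table for each library. Per the file headers, reads were trimmed, aligned with STAR and counted over exons with featureCounts 1.6.4, which divided a read pair evenly among overlapping genes and ignored the strand. The submitters' processing notes name STAR 2.7.1a, featureCounts 1.5.1 and GRCh38, and the study's methods describe other options, among them use of the strand. Reads of overlapping or antisense genes therefore cannot be told apart, and circular forms are not separated from linear ones. Values were not whole for 12.3% to 14.7% of genes, so estimated counts were rounded, although whole counts had been planned for. All 92 spike-in sequences were at 0 and were left out.

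Genes were kept with filterByExpr, scaled by TMM and compared, Tet against EtOH, with the quasi-likelihood test of edgeR 4.0.16 in R 4.3.3, with Benjamini-Hochberg adjustment over all 22443 genes and a threshold of 0.05. The SE is the log2 fold change divided by the square root of F, and log2 CPM used a prior count of 2. Shares were compared by exact two-sided permutation tests. The alternatives were other scalings and filters, DESeq2 1.42.0, limma-voom (limma 3.58.1), a replicate block, each library left out, and a GC correction added after seeing the data. On simulated counts in which 200 of 21853 genes were given a log2 fold change of 1, this comparison recovered 9.5% of them, and with a log2 fold change of 2 (21834 genes) 63.5%. The labels do not say that replicates were separate cultures, and the study's general statement on in vitro work names independent biological replicates without naming these libraries, so p-values measure the spread between these libraries, which may be technical. The members and lists were chosen with earlier results of these data known. Genes named were the 6 RNAs, *MYCN*, genes of the 8 lists (the 2 largest rises and falls), tested neighbours within 50 kb and the 3 most similar genes of each RNA; other names were chosen after their values were seen. Of the gene identifiers, 99.7% had a symbol. Results for some of these genes are not reported here.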

Additional observations from a re-analysis of the deposited data

How the results depend on the processing

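Every setting was run for the 6 log2 fold changes, and 89 of these 96 values had the direction and the side of the threshold of the values reported. The count of the 6 RNAs called was 1, *MIAT*, with no filter on low counts (log2 fold change 1.40), with DESeq2 (1.40) and with the replicate block (1.54), and 0 to 1 when a library was left out. The count of all genes called, 53 as reported, was 302 with no filter, 485 with DESeq2, 675 with the replicate block and 121 with the GC correction, which was chosen after seeing the data. It ran from 0 to 692 when a library was left out, with 0 without Tet replicate 1 (edgeR; 1865 genes at an unadjusted p under 0.05) or Tet replicate 3 (2067 genes), and 692 without EtOH replicate 2. Leaving out a library gave log2 fold changes of 1.06 to 1.65 for *MIAT*, 0.37 to 0.57 for *MALAT1*, 0.02 to 0.37 for *KCNQ1OT1*, -0.12 to 0.30 for *NEAT1*, -0.12 to 0.25 for *NORAD* and -0.41 to -0.24 for *OIP5-AS1*. Beyond the smaller number of libraries, the cause was not tested.

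The replicate numbers were treated as a shared number only, because the correlation of deviations between same-numbered libraries was 0.06, 0.51 and 0.22, with the first too low to pair them. The block changed no other call among the 6 RNAs, and in same-numbered pairs the combined share was higher in Tet in 3 of 3 (by 2.08, 2.20 and 2.28 percentage points), where p = 0.25 (exact sign-flip permutation) is the smallest value that 3 pairs can give. Over all settings, the median log2 fold change of all genes moved from -0.05 to 0.02.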
